A study of Mus musculus with 4 samples.

Results

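The 10 genes described here mark blood vessels or let white blood cells leave them, and were followed in the dorsal skin of mice with imiquimod (IMQ)-induced psoriasis-like dermatitis. They were taken by gene symbol, and each of the 10 was found among the 24346 genes of the files. They are the selectins *Sele* and *Selp*, the adhesion molecules *Icam1* and *Vcam1*, the junction and identity genes *Pecam1*, *Cdh5* and *Vwf*, the growth factor *Vegfa* with its receptor *Kdr*, and the chemokine-binding receptor *Ackr1*. Male C57BL/6 mice, 8 weeks old at the start, received a high-fat, high-cholesterol, high-sucrose diet with bile salt (NASH diet) for 3 weeks. They then received 5% IMQ cream on the back and the right ear, and the skin of the back was collected on Day 1. The diet of the Cont-IMQ group held no 7-ketocholesterol (7KC), an oxidized form of cholesterol, whereas that of the 7KC-IMQ group did, and each group has 2 libraries (replicates 1 and 2). All 4 libraries come from IMQ-treated skin of mice on the NASH diet, so neither the effect of IMQ nor that of the diet itself can be read from them. The sources do not say whether a library came from a single animal, and p-values therefore measure only the spread between these samples. RNA was measured as FPKM, the fragments of a gene scaled to its exon length and to the mapped fragments of the library, which allows levels to be compared between genes.

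White blood cells leave the blood mainly in postcapillary venules. E-selectin and P-selectin let them roll along the endothelium, chemokines that are carried and displayed there activate their integrins, and ICAM-1 and VCAM-1 hold those integrins so that the cells can stop and crawl. The cells then pass between endothelial cells, past PECAM-1 and the vascular cadherin encoded by *Cdh5*. E-selectin and VCAM-1 are made after stimulation by cytokines such as TNF and IL-1 acting through NF-kB, and ICAM-1 is raised by the same route, in keratinocytes as well as in endothelium. VEGF-A, made in skin largely by keratinocytes, acts on endothelial cells through the receptor encoded by *Kdr*.

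In these libraries the genes of the set differed in opposite directions. *Sele*, *Icam1*, *Vcam1* and *Vegfa* were higher in each 7KC-IMQ library than in either Cont-IMQ library, whereas *Pecam1*, *Vwf* and *Kdr* were lower in both, and *Selp*, *Cdh5* and *Ackr1* overlapped. Thus 4 of the 10 were higher and 3 were lower without overlap, where 23.9% and 22.9% of the 15896 genes tested, together 46.8%, were separated in the same way. The median difference over the 10 genes was 0.03 in log2(FPKM + 1), against -0.01 over all genes tested. None of the 10 passed an adjusted p-value of 0.05 in limma, a threshold that 0.00629% of all genes tested passed. Of the 10, 6 had an unadjusted p-value below 0.05, of which 3 were higher (*Sele*, *Icam1* and *Vegfa*) and 3 lower (*Pecam1*, *Vwf* and *Kdr*). Over all genes, 7.50% were higher and 5.47% lower at that level, together 13.0%. These were 1192 and 869 genes, against 638 and 1229 with the libraries rescaled to the same sum of FPKM, where *Sele*, *Icam1*, *Vcam1* and *Vegfa* remained higher and *Pecam1*, *Vwf* and *Kdr* lower. The lowest adjusted p-value among the 10 was 0.352 in limma. For a single gene, the smallest two-sided p-value of an exact permutation test between groups of 2 is 0.333.

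**Figure D1:**
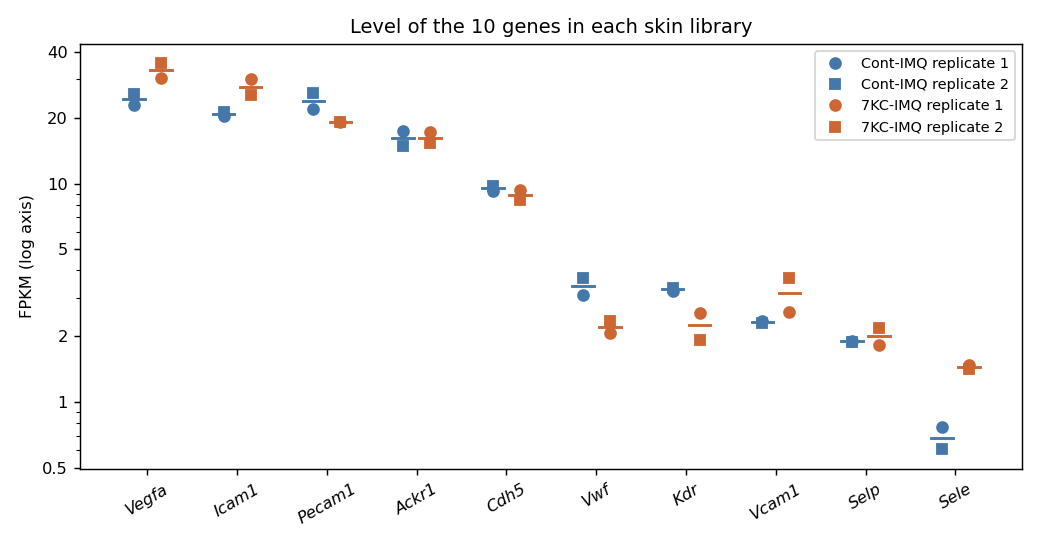
FPKM of the 10 genes (log axis) in each library, ordered by their mean; circles are replicate 1, squares replicate 2, blue is Cont-IMQ, orange is 7KC-IMQ, and horizontal lines are group means (n = 2). *Sele* has the lowest level and the widest gap between the groups, 0.686 against 1.44 FPKM, while *Cdh5* and *Ackr1* lie at like levels in both.

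From the steps of the low FPKM values, the depth of the libraries was estimated at 14940000 to 16220000 reads, which puts every one of the 10 genes above the floor of 3 reads in each library, with 25 reads as the lowest estimate and 1727 as the highest. Keratinocyte markers such as *Krtdap*, at 5822 to 6915 FPKM, were abundant in each library, as the label of skin requires. Cont-IMQ replicate 2 stood apart in the hair follicle markers, whose 13 genes summed to 1642 FPKM there, to 128 FPKM in Cont-IMQ replicate 1 and to 483 and 427 FPKM in the 7KC-IMQ libraries. The part of hair growth in the results below was not tested. In bulk skin, fewer cells of a type cannot be told apart from less RNA per cell.

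For the matched genes with an unadjusted p-value below 0.05, the bases before the transcription start are shown, because cytokine-driven transcription of adhesion genes is known to run through NF-kB sites close to the start. RefSeq promoters (GRCm38.p6, the assembly also called mm10) were matched by symbol for 6 of the 10 genes, and the 250 bases before the start of 4 of them are printed 5′ to 3′ on the strand of the gene. Capitals mark a match, on either strand, to the NF-kB motif, of 10 bases with several ambiguous positions, or to GGANNTTCC, a second pattern for NF-kB sites that was chosen after the first had been searched.
Sele, chr1:164047984-164048233, plus strand: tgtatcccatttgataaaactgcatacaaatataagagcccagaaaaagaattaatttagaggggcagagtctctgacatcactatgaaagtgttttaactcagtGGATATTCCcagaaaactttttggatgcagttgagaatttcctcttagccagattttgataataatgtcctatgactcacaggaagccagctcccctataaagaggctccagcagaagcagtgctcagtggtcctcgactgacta
Icam1, chr9:21015690-21015939, plus strand: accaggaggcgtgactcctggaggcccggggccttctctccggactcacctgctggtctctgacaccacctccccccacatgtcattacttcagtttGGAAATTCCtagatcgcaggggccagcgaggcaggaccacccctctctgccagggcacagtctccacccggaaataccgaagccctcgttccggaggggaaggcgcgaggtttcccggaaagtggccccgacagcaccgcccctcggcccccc
Vegfa, chr17:46032378-46032627, minus strand: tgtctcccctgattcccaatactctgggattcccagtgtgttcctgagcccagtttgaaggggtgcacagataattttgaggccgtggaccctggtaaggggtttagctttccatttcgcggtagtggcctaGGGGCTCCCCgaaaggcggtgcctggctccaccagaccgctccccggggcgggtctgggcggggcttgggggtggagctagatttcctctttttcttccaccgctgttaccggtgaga
Kdr, chr5:75978456-75978705, minus strand: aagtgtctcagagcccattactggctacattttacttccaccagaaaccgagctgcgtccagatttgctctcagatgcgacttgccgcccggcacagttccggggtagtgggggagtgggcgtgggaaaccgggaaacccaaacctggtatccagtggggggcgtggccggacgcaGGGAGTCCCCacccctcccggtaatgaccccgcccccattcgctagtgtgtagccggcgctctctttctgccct

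The letters GGANNTTCC occurred in *Sele*, from 145 to 137 bases before the start, and in *Icam1*, from 153 to 145 bases before it. Positions are counted from the start that ends each printed window, which can differ from the gene coordinates given below. For *Icam1* the window ends at 21015939, whereas those coordinates begin at 21015985. They occur in 3.59% of the 32851 promoters of the same length. The NF-kB motif occurred in *Vegfa* and in *Kdr*, from 118 to 109 and from 74 to 65 bases before the start, and in 7.25% of all promoters. The match was thus present both in a gene that was higher and in a gene that was lower in the 7KC-IMQ group. *Sele* also held the letters TATAAA, from 49 to 44 bases before the start (12.4% of promoters), and TGANTCA, the letters of an AP-1 site, from 73 to 67 bases before it (6.75% of promoters). *Selp* held TGANTCA from 139 to 133 bases before the start. Of the other letters searched, GGAAGT was found in *Kdr* on the opposite strand (19.7% of promoters), and ACGTG was found in none of these windows but that of a second, downstream start of *Vegfa* (16.6% of promoters). None of the matches named overlapped another. A match is a description of the sequence and was not tested for binding.

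*Sele* encodes E-selectin, which is made by endothelial cells after stimulation. The gene lies on chromosome 1 of GRCm38, from 164048234 to 164057677. Its level was 0.766 FPKM in Cont-IMQ replicate 1 and 0.605 FPKM in replicate 2, compared with 1.48 and 1.41 FPKM in the respective 7KC-IMQ libraries. The groups did not overlap, and the gap was larger than the spread within either group. The group means were 0.686 ± 0.114 and 1.44 ± 0.0485 FPKM (SD, n = 2), a ratio of 2.10. The values rest on an estimated 31, 25, 65 and 57 reads, whose counting error alone is between 12.4% and 20.2%. The difference in log2(FPKM + 1) was 0.54 (standard error 0.11, 95% interval 0.24 to 0.83, adjusted p = 0.352 in limma). As this scale compresses low values, a pseudocount of 0.1 in place of 1 gave 0.98. Omitting single libraries gave differences of 0.47 to 0.61.

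*Selp* encodes P-selectin, which endothelial cells and platelets store and bring to the surface within minutes. It is the neighbor of *Sele* on chromosome 1, from 164115264 to 164150026. Its levels were 1.90 and 1.88 FPKM (Cont-IMQ) against 1.82 and 2.18 FPKM (7KC-IMQ), so the highest and the lowest value were both in the 7KC-IMQ group. The difference in log2(FPKM + 1) was 0.05 (95% interval -0.26 to 0.36), and it turned to -0.04 without 7KC-IMQ replicate 2 and to -0.01 with the libraries rescaled to the same sum. The ratio of *Sele* to *Selp*, both endothelial selectins, was 0.403 and 0.321 in the Cont-IMQ group and 0.813 and 0.648 in the 7KC-IMQ group. Without overlap, *Sele* thus stood closer to *Selp* in the skin of 7KC-fed mice. Exons of *Selp* overlap 2 annotated genes on the opposite strand, and whether strand was used in the authors' counting is not given in the sources used here.

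*Icam1* encodes ICAM-1, the ligand of the leukocyte integrins LFA-1 and Mac-1. It lies on chromosome 9, from 21015985 to 21028817. The Cont-IMQ libraries were at 20.5 and 21.2 FPKM, and 7KC-IMQ replicates 1 and 2 at 30.2 and 25.3 FPKM. The 7KC-IMQ libraries were both higher but differed from each other by more than the gap between the lower of them and the Cont-IMQ group. The means were 20.8 ± 0.505 and 27.8 ± 3.46 FPKM (SD, n = 2), a ratio of 1.34. The difference in log2(FPKM + 1) was 0.40 (standard error 0.11, 95% interval 0.11 to 0.68, adjusted p = 0.356 in limma), and it was 0.27 without 7KC-IMQ replicate 1. The estimated reads ranged from 724 to 1146, with a counting error of at most 3.72%. The spread of the 7KC-IMQ group was larger than this, and that of the Cont-IMQ group was not. Exons of *Icam1* overlap an annotated gene on the opposite strand.

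*Vcam1*, on chromosome 3 from 116109949 to 116129688, encodes VCAM-1, which binds the integrin VLA-4 of lymphocytes and monocytes. Skin of the Cont-IMQ group had 2.35 and 2.30 FPKM, whereas 7KC-IMQ replicate 1 had 2.58 and replicate 2 had 3.71 FPKM. Replicate 1 of the 7KC-IMQ group was close to the Cont-IMQ libraries, and most of the difference came from replicate 2. The ratio of means was 1.35, with a difference in log2(FPKM + 1) of 0.30 (standard error 0.17, 95% interval -0.13 to 0.74, adjusted p = 0.506 in limma). It was 0.11 without 7KC-IMQ replicate 2 and 0.50 without 7KC-IMQ replicate 1. The counting error of single values, 7.43% to 9.44%, is of the size of the gap between replicate 1 and the Cont-IMQ group. *Vcam1* also has an opposite-strand gene over its exons.

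*Pecam1* encodes PECAM-1 (CD31), found at the junctions of endothelial cells and on platelets and several white blood cells. On chromosome 11, from 106654217 to 106750628, it was at 21.9 and 26.0 FPKM in Cont-IMQ skin, against 19.1 FPKM in both 7KC-IMQ libraries. All of the spread was in the Cont-IMQ group, where replicate 2, the library with the high hair follicle markers, was the higher one. The mean was 20.3% lower in the 7KC-IMQ group, with a difference in log2(FPKM + 1) of -0.31 (standard error 0.11, 95% interval -0.59 to -0.02, adjusted p = 0.371 in limma). Without Cont-IMQ replicate 2 it was -0.19, and without Cont-IMQ replicate 1 it was -0.43.

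*Vwf*, on chromosome 6 from 125546774 to 125686679, encodes von Willebrand factor, which endothelial cells store together with P-selectin and which binds platelets. Its levels were 3.09 and 3.70 FPKM (Cont-IMQ) against 2.07 and 2.35 FPKM (7KC-IMQ). The groups did not overlap, and the mean was 34.8% lower in the 7KC-IMQ group, from 3.39 ± 0.429 to 2.21 ± 0.195 FPKM (SD, n = 2). The difference in log2(FPKM + 1) was -0.45 (standard error 0.13, 95% interval -0.79 to -0.11, adjusted p = 0.356 in limma). Omitting single libraries gave values from -0.55 to -0.35. Among the 10 genes it was the lowest of the differences. *Sele* and *Vwf* thus differed in opposite directions, and the ratio of *Sele* to *Vwf* was 0.248 and 0.164 in the Cont-IMQ group and 0.712 and 0.600 in the 7KC-IMQ group.

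*Cdh5* encodes VE-cadherin, the cadherin of endothelial junctions and among the most specific markers of endothelium. It lies on chromosome 8, from 104101625 to 104144511. It had 9.29 and 9.78 FPKM (Cont-IMQ) against 9.38 and 8.43 FPKM (7KC-IMQ). The groups overlapped, as 7KC-IMQ replicate 1 lay between the Cont-IMQ libraries. The difference in log2(FPKM + 1) was -0.09 (standard error 0.10, 95% interval -0.35 to 0.17, adjusted p = 0.735 in limma), an interval that leaves room for a difference in either direction.

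The VEGF axis differed in opposite directions at its ligand and its receptor. *Vegfa*, on chromosome 17 from 46016993 to 46032369, encodes VEGF-A, which makes vessels grow and leak. It was the most abundant of the 10, with 22.9 and 25.6 FPKM (Cont-IMQ) against 30.4 and 35.6 FPKM (7KC-IMQ). The means were 24.3 ± 1.92 and 33.0 ± 3.68 FPKM (SD, n = 2), a ratio of 1.36, and the difference in log2(FPKM + 1) was 0.42 (standard error 0.11, 95% interval 0.13 to 0.72, adjusted p = 0.356 in limma). *Kdr*, on chromosome 5 from 75932827 to 75978458, encodes VEGFR2, its main signaling receptor on endothelium. *Kdr* had 3.23 and 3.32 FPKM (Cont-IMQ) against 2.56 and 1.93 FPKM (7KC-IMQ). It was 31.5% lower in mean, with a difference in log2(FPKM + 1) of -0.40 (standard error 0.14, 95% interval -0.77 to -0.04, adjusted p = 0.366 in limma), and -0.26 without 7KC-IMQ replicate 2. The ratio of ligand to receptor was 7.09 and 7.74 in the Cont-IMQ group and 11.9 and 18.4 in the 7KC-IMQ group, where the 2 libraries differed from each other by more than the Cont-IMQ libraries did.

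*Ackr1* encodes a receptor, also called DARC, that binds many chemokines without signaling and moves them across the wall of venules. On chromosome 1, from 173331886 to 173333750, it had 17.4 and 14.8 FPKM (Cont-IMQ) against 17.2 and 15.3 FPKM (7KC-IMQ). Both groups covered almost the same range, and the difference in log2(FPKM + 1) was 0.01 (standard error 0.12, 95% interval -0.30 to 0.32, adjusted p = 0.973 in limma). Its sign turned with the scaling, at -0.06 with the libraries rescaled to the same sum. The exons of *Ackr1* overlap those of *Cadm3* on the same strand, and 16.9% of its 75-base windows also occur in another annotated gene, so its level is uncertain. For the other 9 genes this share was at most 0.793%.

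**Figure D2:**
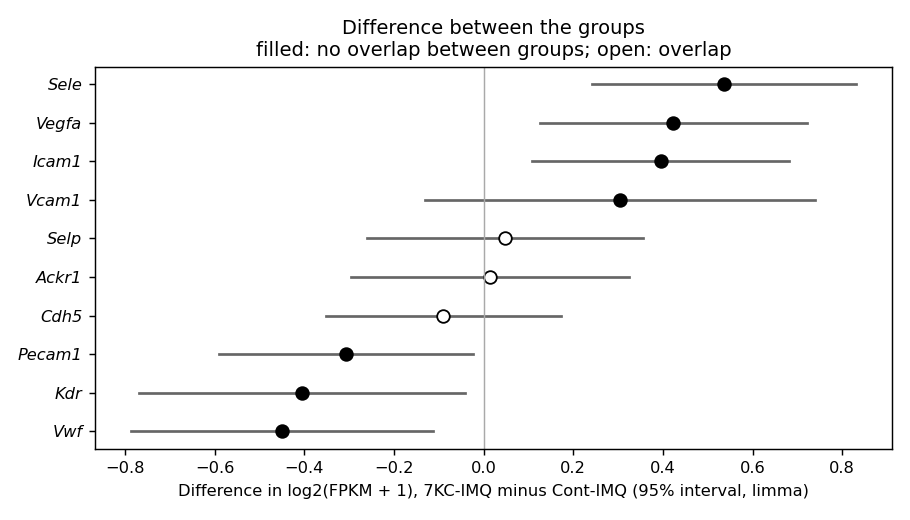
Difference in log2(FPKM + 1) between the groups, 7KC-IMQ minus Cont-IMQ, for each of the 10 genes, with the 95% interval of limma as a line; filled points have no overlap between the groups and open points overlap. *Sele*, *Vegfa* and *Icam1* have intervals above 0, *Pecam1*, *Kdr* and *Vwf* have intervals below 0, and none of the 10 passed after adjustment over all genes.

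By mean level over the 4 libraries, the order was *Vegfa*, *Icam1*, *Pecam1*, *Ackr1*, *Cdh5*, *Vwf*, *Kdr*, *Vcam1*, *Selp* and *Sele*, from 28.6 to 1.06 FPKM. The ranges of *Vegfa* and *Icam1* overlapped, although *Vegfa* was the higher in each of the 4 libraries, and so did those of *Icam1* and *Pecam1*. *Icam1* was above *Pecam1* in the 7KC-IMQ group and below it in the Cont-IMQ group. *Vwf*, *Kdr* and *Vcam1*, at 2.80, 2.76 and 2.73 FPKM, overlapped as well, and the other neighbors were separate in their ranges. In this skin *Icam1* was about as abundant as *Pecam1*, while the inducible *Sele* remained the least abundant of the set in every library.

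As *Cdh5* overlapped between the groups, each gene was also set against *Cdh5* of the same library. *Sele* was 0.0825 and 0.0619 of the *Cdh5* level in the Cont-IMQ group and 0.157 and 0.167 of it in the 7KC-IMQ group. *Icam1* was on average at 2.18 times *Cdh5* in the Cont-IMQ group (SD 0.0269, n = 2), and at 3.22 and 3.01 times in the 7KC-IMQ group, and on this scale the 7KC-IMQ libraries were closer to each other. *Vcam1* and *Vegfa* were higher and *Pecam1*, *Vwf* and *Kdr* lower without overlap on this scale too, and *Selp* and *Ackr1* overlapped. The directions and the separations were therefore those seen in the FPKM values. As *Cdh5* was chosen for differing little between the groups, this follows largely from that choice and is no further support. Of 22 other endothelial identity markers, 16 were lower in mean in the 7KC-IMQ group, and ratios to them were not taken. Since *Vegfa*, *Icam1* and *Vcam1* are made by other cells of skin as well, these ratios are not levels per endothelial cell.

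**Figure D3:**
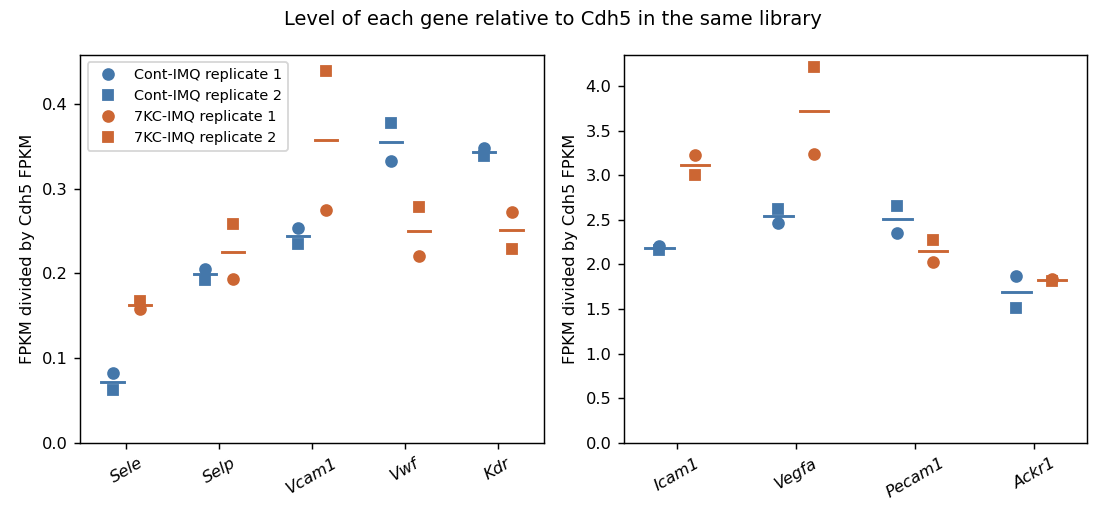
FPKM of 9 genes divided by the FPKM of *Cdh5* in the same library (linear axes from 0, separate scales for the left and right panels); symbols and colors are as for the plot of levels, and lines are group means (n = 2). *Sele* moves from a mean of 0.0722 to 0.162 and *Icam1* from 2.18 to 3.12, while *Vwf* goes from 0.355 to 0.250.

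*Pecam1*, *Vwf* and *Kdr* were lower whereas *Cdh5* overlapped, and the other markers of endothelium are given beside them. The counts of this and each later list are to be read beside the shares over all genes tested. Without overlap, 23.9% of all genes were higher and 22.9% lower. With limma's unadjusted p-value below 0.05, 7.50% were higher and 5.47% lower. Of 22 endothelial identity markers outside the 10, 16 were lower in mean in the 7KC-IMQ group and 6 higher, and 10 were lower and 3 higher without overlap, with a median difference of -0.18 in log2(FPKM + 1). With limma's unadjusted p-value below 0.05, 6 were lower and 0 higher, and none passed after adjustment (lowest adjusted p = 0.352). *Tek*, the receptor of angiopoietins, was at 6.44 and 6.98 FPKM (Cont-IMQ) against 4.63 and 4.11 FPKM (7KC-IMQ), *Cldn5*, the claudin of endothelial tight junctions, at 9.20 and 8.58 against 6.63 and 5.51 FPKM, and *Emcn*, which encodes the sialomucin endomucin, at 9.17 and 8.80 against 6.59 and 6.47 FPKM. *Egfl7*, the most abundant of the list, overlapped, with 14.6 and 22.4 against 16.5 and 14.5 FPKM. The summed level of the 22 genes was 145 and 157 FPKM against 139 and 131 FPKM. This list depended on Cont-IMQ replicate 2, without which its median was -0.06, with 15 genes lower in mean and 7 higher.
Markers of lymphatic endothelium were lower in mean in 6 of 6 genes, 4 of them without overlap. *Ccl21a*, the chemokine of lymphatic vessels, had 71.4 and 60.8 FPKM (Cont-IMQ) against 48.5 and 52.7 FPKM (7KC-IMQ), and *Mmrn1* had 6.72 and 7.47 against 5.67 and 4.98 FPKM. Without Cont-IMQ replicate 2 the median difference of this list was -0.24, against -0.21 with it. Of 10 markers of pericytes and vascular smooth muscle, 8 were lower in mean and 4 without overlap, led by *Des*, at 356 and 410 against 272 and 318 FPKM, a gene that muscle fibers of skin also express. Rescaling the libraries and quantile normalization left more genes lower than higher in the endothelial and lymphatic lists. With each library centred on the endothelial markers themselves, which raised the median of all genes to 0.15, *Sele*, *Vegfa* and *Icam1* differed by 0.69, 0.58 and 0.55, and *Pecam1*, *Vwf* and *Kdr* by -0.15, -0.29 and -0.25. Set against that shift, the former were higher and the latter lower than the median gene. Under this centring the identity markers were 11 higher and 11 lower in mean, and the medians of the integrin, junction, VEGF, pericyte and macrophage lists turned to 0.09, 0.04, 0.13, 0.09 and 0.02. Those of the T cell, keratinocyte, platelet, red blood cell and hair follicle lists turned as well, to 0.14, 0.13, 0.02, 0.04 and 0.0056. All of these lay below the shift of 0.15.

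Cytokines that induce adhesion molecules, their receptors, and NF-kB genes, feedback genes among them, were listed together and were mostly higher. Of the 17 genes of this list that were tested, 14 were higher in mean in the 7KC-IMQ group and 11 without overlap, and 0 were lower without overlap, with a median difference of 0.16 in log2(FPKM + 1). With limma's unadjusted p-value below 0.05, 6 were higher, and none passed after adjustment (lowest adjusted p = 0.352). *Tnf* was at 4.40 and 3.13 against 7.98 and 6.47 FPKM, *Il1b* at 11.1 and 16.4 against 24.9 and 22.4 FPKM, and *Il1a* at 50.6 and 33.9 against 62.7 and 94.1 FPKM. *Il1r1*, the receptor of IL-1, was at 13.5 FPKM in both Cont-IMQ libraries, and at 18.4 and 18.3 FPKM with 7KC. In contrast, the NF-kB feedback genes *Nfkbia* and *Tnfaip3* overlapped between the groups, the latter with 13.4 and 28.5 against 18.1 and 24.6 FPKM. *Tnfrsf1b*, *Relb* and *Traf1* were lower in mean, with overlap. With the libraries rescaled to the same sum or quantile-normalized, 8 of the 17 were higher without overlap, and the median was 0.09 and 0.13. Without Cont-IMQ replicate 1 it was 0.25. The study itself examined TNF signaling in these libraries, so the direction of this list is not independent evidence.

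The chains of the leukocyte integrin that binds ICAM-1 overlapped between the groups. Of 15 genes of the integrins and their activation that were tested, 0 were higher and 5 lower without overlap, and *Itgam* and *Itgb2*, which encode the chains of Mac-1, were at 31.1 and 38.6 against 32.4 and 37.5 FPKM and at 24.1 and 32.6 against 23.2 and 26.6 FPKM. *Itga4*, the alpha chain of VLA-4, had 1.07 and 1.12 against 1.01 and 0.675 FPKM, and *Tln1*, the talin that activates integrins, had 22.5 and 22.7 against 19.8 and 19.1 FPKM. Of 14 genes of selectin ligands and the enzymes that build them, 6 were higher and 2 lower without overlap, and 4 and 4 with the libraries rescaled to the same sum. *Cd44*, whose product can carry E-selectin ligands, was at 60.5 and 61.9 against 72.4 and 73.5 FPKM, and *B4galt1* was at 35.6 and 35.4 against 41.2 and 41.5 FPKM, but both are widely expressed. *St3gal6*, the largest separated difference of this list, was lower, at 10.4 and 11.3 against 8.15 and 9.56 FPKM. *Selplg*, which encodes the main P-selectin ligand, overlapped, with 12.2 and 9.97 against 10.3 and 10.6 FPKM. *Glycam1* and *Chst4*, genes of the high endothelial venules of lymph nodes, were not tested, and *Chst4* was listed at 0 in all 4 libraries.
Among 18 other endothelial ligands and junction genes, 2 were higher and 9 lower without overlap, and 14 were lower in mean. Their median was -0.12, and -0.02 without Cont-IMQ replicate 2, with 7 genes higher and 11 lower in mean. *Thy1* encodes a ligand of Mac-1 that endothelium, fibroblasts and other cells of skin carry. It was higher, at 62.6 and 57.1 against 78.0 and 83.5 FPKM, and *Cgnl1* was lower, at 5.30 and 5.10 against 3.99 and 3.52 FPKM. *Icam2*, the constitutive counterpart of *Icam1*, had 6.27 and 7.88 against 6.25 and 6.01 FPKM. Of 17 genes of the VEGF and angiopoietin families outside the 10, 2 were higher and 6 lower without overlap, and the direction of the median turned from -0.03 to 0.01 without Cont-IMQ replicate 2. *Figf*, which encodes VEGF-D, was at 12.8 and 15.3 against 10.2 and 9.98 FPKM, and *Flt1*, the other VEGF-A receptor of endothelium, was at 2.56 and 2.64 against 2.66 and 3.21 FPKM, a narrow separation in the direction opposite to that of *Kdr*. *Tek*, *Tie1* and *Flt1* are also among the identity markers, as are *Cldn5*, *Esam* and *Ptprb* of the junction list. Over the 5 functional lists pooled, 81 genes were tested, of which 21 were higher and 22 lower without overlap. Over all genes tested, these shares were 23.9% and 22.9%. None of the 81 passed after adjustment in limma, and 9 were higher and 7 lower at an unadjusted p-value under 0.05. Over all genes, 7.50% were higher and 5.47% lower at that level.

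**Figure D4:**
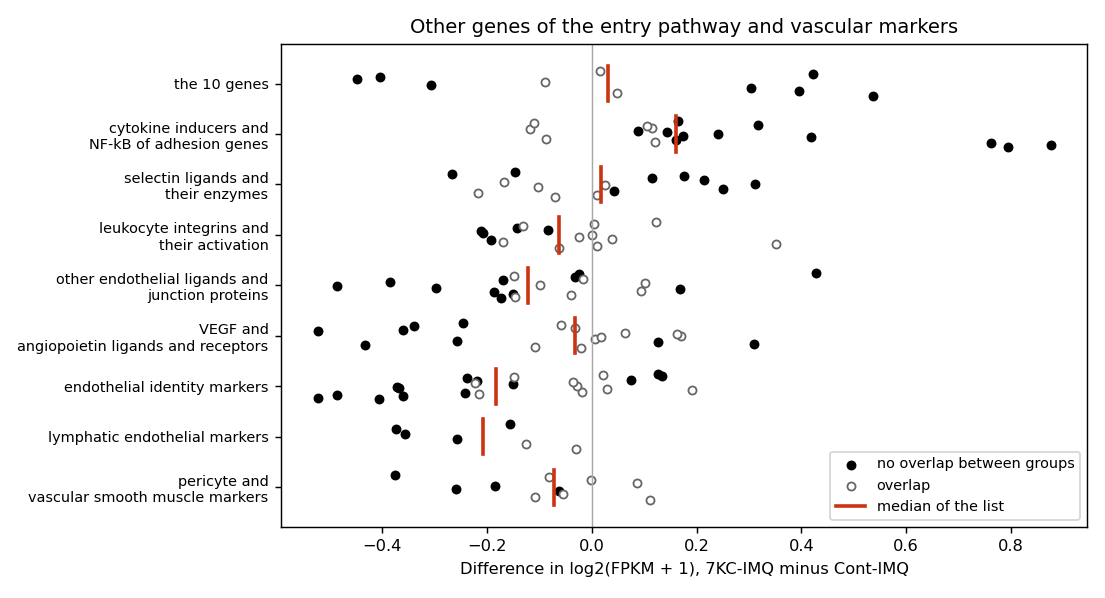
Difference in log2(FPKM + 1), 7KC-IMQ minus Cont-IMQ, of single genes in the set of 10 and in 8 lists; each point is a gene, filled without and open with overlap between the groups, and red bars are the medians of the lists. The cytokine and NF-kB list has its median at 0.16, whereas the endothelial identity and lymphatic lists have theirs at -0.18 and -0.21, and the 10 genes fall on both sides of 0.

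Of 8 genes of postcapillary venules, the vessels where *Ackr1* and the selectins are found, 4 were higher and 2 lower without overlap. *Tnfaip2*, a gene induced by TNF, was at 20.4 and 16.9 against 34.5 and 36.9 FPKM (difference 0.90, standard error 0.12, adjusted p = 0.331 in limma), *Lrg1*, which encodes a secreted glycoprotein of venules and neutrophils, at 30.5 and 33.7 against 55.7 and 46.7 FPKM, and *Il33*, an alarmin also made by keratinocytes, at 40.1 and 32.3 against 52.3 and 81.8 FPKM. The venous identity genes *Nr2f2* and *Ephb4* were lower without overlap, the former at 2.16 and 2.03 against 1.77 and 1.84 FPKM. Several of these genes are also expressed by other cells of skin. Of 11 arterial and capillary genes, 1 was higher and 1 lower without overlap.

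Markers of other cells that can hold these transcripts were read in the same libraries, and their part in the differences was not tested. Platelets carry *Selp*, *Vwf* and *Pecam1*, and the 10 platelet and megakaryocyte markers summed to 41.4 and 35.3 FPKM (Cont-IMQ) against 28.2 and 30.5 FPKM (7KC-IMQ). Most of this was *Pf4*, which macrophages also express, at 34.6 and 31.5 against 23.1 and 25.4 FPKM, and the platelet glycoprotein genes *Gp9* and *Gp6* were listed at 0 in all 4 libraries. Of the other platelet glycoprotein genes, *Gp1bb* overlapped at 4.89 and 2.18 against 3.02 and 2.96 FPKM, and *Gp1ba* at 0.642 and 0.182 against 0.264 and 0.235 FPKM. *Itga2b* was higher without overlap, at 1.16 and 1.38 against 1.65 and 1.73 FPKM. Hemoglobin RNA is a sign of blood left in the tissue. *Hba-a1* overlapped between the groups, at 18.2 and 6.60 against 6.46 and 25.3 FPKM. *Hbb-bs* was at 8.32 and 0.00438 against 0.00392 and 0.00430 FPKM, with almost all of it in Cont-IMQ replicate 1. Its groups are separated only by the order of very low values, which is not read as a difference.
Macrophages and T cells hold *Pecam1* and *Icam1*. Of 10 monocyte and macrophage markers, 4 were higher and 6 lower in mean, and 1 was higher and 3 lower without overlap. The higher one was *Cd14*, at 7.73 and 6.27 against 8.35 and 8.97 FPKM. Their sum was 408 and 450 against 373 and 378 FPKM, with the most abundant, *Lyz2*, at 210 and 233 against 191 and 175 FPKM. Of 6 T cell markers tested, 1 was higher and 2 lower, with *Cd3g* at 10.1 and 9.61 against 7.62 and 5.59 FPKM. Neutrophil markers went the other way, with 8 of 11 higher and 1 lower without overlap. Their sum of 2581 and 2127 against 7226 and 13821 FPKM was held almost wholly by *S100a8* and *S100a9*, which keratinocytes also make, while *Retnlg* was at 0.821 and 1.66 against 3.38 and 2.00 FPKM, and *Camp*, *Ltf*, *Ngp*, *Elane* and *Mpo* were listed at 0 in at least 1 library.
Keratinocytes and fibroblasts make *Vegfa*, *Icam1* and *Vcam1*. Of 10 keratinocyte markers, 7 were lower in mean, and 2 were higher and 1 lower without overlap. *Flg2*, a gene of the cornified layer, was lower at 96.3 and 79.0 against 59.9 and 34.9 FPKM, and *Dsg3* and *Krt14* were higher, the latter at 4409 and 4132 against 4807 and 5700 FPKM. Their summed level overlapped between the groups. Of 8 fibroblast markers, 1 was higher and 1 lower, and of 9 adipocyte markers, 4 were higher and 0 lower. The largest of these differences was in *Lep*, at 1.64 and 1.16 against 9.75 and 3.70 FPKM, and *Plin1* was at 17.4 and 19.5 against 26.0 and 22.7 FPKM. The adipocyte list rested on Cont-IMQ replicate 1, without which 5 were higher and 4 lower in mean and the median went from 0.25 to 0.02. Of 10 skeletal muscle markers, 2 were higher and 2 lower. *Myh4* was higher, at 125 and 62.9 against 427 and 329 FPKM, and *Myh1* was lower, at 695 and 753 against 322 and 568 FPKM. Housekeeping genes were mostly slightly higher, 7 of 10 without overlap, with a median difference of 0.10, which went to 0.02 with the libraries rescaled to the same sum and to -0.00089 with quantile normalization.
Several lists rested on single Cont-IMQ libraries. Without Cont-IMQ replicate 2, the median turned from 0.16 to -0.11 in the fibroblast list and from 0.10 to -0.06 in the muscle list, and went from -0.02 to -0.31 in the T cell list, from -0.03 to -0.19 in the keratinocyte list and from 0.01 to 0.18 in the arterial and capillary list. Without Cont-IMQ replicate 1, the T cell, platelet, red blood cell, keratinocyte and arterial medians turned to 0.06, 0.13, 0.07, 0.17 and -0.29, and that of the venule list went from 0.40 to 0.22.

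For a description of shared patterns, the deviations of log2(FPKM + 1) from the mean over the 4 libraries were compared between each of the 10 and the listed genes with a mean of at least 1 FPKM (211 genes), by their root mean square distance. With 4 libraries, such likeness rests on few points. The scale also compresses low values, so genes that are near on it can differ in their ratio of means. *Sele* was nearest to *Thy1* (0.073), *Il1r1* (0.077) and *Icam1* (0.12). The ratio of means was 2.10 in *Sele*, against 1.35, 1.36 and 1.34 in these genes. In *Vegfa* it was 1.36, against 2.14 in *Cxcr1*, which is named below. *Pecam1* was nearest to *Cd99l2* (0.033), *Tie1* (0.034) and *Robo4* (0.054), and *Kdr* to *Cgnl1* (0.057), *Cldn5* (0.061) and *Mmrn1* (0.063). The candidates were the listed genes themselves, many of them listed as genes of vessels. *Vwf* was nearest to *Cd93* (0.050), *Des* (0.051) and *Figf* (0.058). *Cdh5* was nearest to *Itgal* (0.023), *Eng* (0.032) and *Apbb1ip* (0.039), and *Icam1* to *Plin1* (0.044), *Pparg* (0.079) and *Il1r1* (0.085). *Vegfa* was nearest to *Cxcr2* (0.074), the neutrophil chemokine receptor that keratinocytes can also carry, *Pdgfra* (0.087) and *Cxcr1* (0.10), *Vcam1* to *Krt14* (0.058), *Selp* to *Hprt* (0.024) and *Ackr1* to *Itgb7* (0.030).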

How the data were processed

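Dorsal skin was measured by RNA sequencing in 4 libraries, Cont-IMQ and 7KC-IMQ replicates 1 and 2, grouped by the treatment label. The authors sequenced 75-base single-end reads from stranded libraries and deposited an FPKM value per gene symbol and library. The submitters' processing notes name mm10, TopHat2 2.1.1, Bowtie2 2.2.8, SAMtools 0.1.18 and Cuffdiff 2.2.1, and the paper's methods name other versions and Cufflinks. Median-ratio scaling factors were almost equal in all libraries, so the deposited values were already on a common scale. Exact 0 values can be failed estimates.

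The 15896 genes whose FPKM averaged 0.1 or more were compared on log2(FPKM + 1) by limma 3.58.1 in R 4.3.3 (lmFit, eBayes with a variance trend, two-sided, Benjamini-Hochberg adjustment over all genes at 0.05). Fold changes on this scale are understated for low genes. The fit was tested on simulated data. Reads were estimated as the depth that brings low values of genes with 1 annotated transcript over 600 bases closest to whole reads, within 0.1 read, at a fragment length of 200 bases. Between 74.8% and 76.7% of those values were near whole, where 20% is given by chance. The estimate is of reads on the deposited scale, and it covers counting error only. Coordinates and lengths came from GENCODE M21 (GRCm38). Members and gene lists were chosen with earlier results of these data known, and motifs after the values were seen. All 10 members are named. Up to 3 genes per list were selected by rule, those with the largest separated difference at a mean FPKM of at least 1, and the most abundant gene of a marker list. Not all of the genes selected in this way are given in the text. Other genes were chosen after their values were seen. One listed gene was found under an older symbol, *Figf*, and *Ly6g*, *Trac*, *Trbc2*, *Trdc*, *Hbb-bt* and *Ahsp* were not analysed here.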

Additional observations from a re-analysis of the deposited data

How the results depend on the processing

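Each of the 10 genes was recomputed under 13 alternatives, and 123 of the 130 values kept their direction, with none passing an adjusted p-value of 0.05 in limma under any of them. The 7 that turned were all in genes whose groups overlapped. With the libraries rescaled to the same sum, *Selp* was at -0.0072 and *Ackr1* at -0.062 in log2(FPKM + 1), with quantile normalization *Ackr1* was at -0.0022, and with the libraries centred on the endothelial identity markers *Cdh5* was at 0.068. With single libraries left out, *Selp* ranged from -0.039 (without 7KC-IMQ replicate 2) to 0.13, and *Ackr1* from -0.095 (without Cont-IMQ replicate 2; -0.067 without 7KC-IMQ replicate 1) to 0.12. The number of the 10 separated without overlap was 7, and 9 with the endothelial centring. With a library left out, it was 8 to 9, since 2 libraries against 1 overlap less often by construction. The number with an unadjusted p-value under 0.05 in limma was 6, against 5 with the libraries rescaled to the same sum or with no variance trend. It was 4 without a filter or with the endothelial centring. This count is not given with a library left out, where a group holds 1 library. There the 6 genes kept their direction, but differences shrank to as little as 0.27 in *Icam1* and -0.19 in *Pecam1*. Over all genes, 1 passed after adjustment (*Mir24-2*), against 2 with a pseudocount of 0.1, 71 without a filter on low values, 2 with the endothelial centring, and 1 to 9 with a library left out (9 without Cont-IMQ replicate 1, 5 without Cont-IMQ replicate 2), and the cause was not tested. At an unadjusted p-value under 0.05, 1192 genes were higher and 869 lower, against 638 and 1229 with the libraries rescaled to the same sum and 2624 and 207 with the endothelial centring.

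Labels give both groups the same replicate numbers, but do not tie a number to a litter or day. Deviations of same-numbered libraries had a correlation of 0.065 over genes. This single value cannot tell whether such libraries shared a litter or day. With the replicate number as a block, 0 of the 10 passed, 7 were separated and 1 of all genes passed, and the difference of *Sele* remained 0.54 (adjusted p = 0.428 in limma). Depth limits *Sele*, which rests on 25 to 65 estimated reads a library.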
